A study of Mus musculus with 6 samples.

Results

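Collagen genes are taken here as the 43 genes, of 17030 in the deposited table, whose symbol reads Col, a number, the letter a and a number. By the kind of protein they encode they fall into 11 fibrillar, 6 basement membrane, 6 collagen VI, 9 FACIT (fibril-associated collagens with interrupted triple helices), 2 multiplexin (collagens XV and XVIII) and 4 transmembrane collagens, with 5 others that form networks or stand apart. The 6 RNA-seq libraries were made from the mononuclear cells of skeletal muscle. The donors were male mice, strain C57BL/B6, that carried LLC tumours (Lewis lung carcinoma, a transplanted line that wastes muscle). Mice of both groups carried floxed IKKb, the kinase gene (Ikbkb) at the head of canonical NF-kB signalling, and both were given tamoxifen on days 10 to 14 after tumour cell injection. Mice of the 3 Pax7-CreERT libraries (genotype Pax7 Cre ErT x IKKbfl/fl) also carried a Cre recombinase that tamoxifen activates and that is expressed from Pax7, the gene that marks muscle satellite cells, whereas those of the 3 control libraries (IKKbfl/fl) had no Cre. The Cre is thus driven in satellite cells, whereas collagen RNA in muscle is known to come mainly from mesenchymal and vessel cells. No group had Cre without floxed IKKb or lacked a tumour, and the labels give no age. Levels are in CPM, scaled so that each library sums to 1000000 over its genes. Estimated depths were 4054000 to 13355000 reads per library. Endothelial Pecam1 lay between 1943 and 2645 CPM, leukocyte Ptprc between 27.9 and 58.2, mesenchymal Pdgfra between 125 and 322 and Pax7 between 10.9 and 21.6, so several cell types were present in every library. Ikbkb measured 51.4, 48.4 and 52.7 CPM with Cre and 51.3, 57.4 and 48.8 CPM without, and gene totals do not separate the floxed part. Haemoglobin genes took 12.6% of the CPM of control replicate 3 and 1.84% to 4.83% of the others.

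Collagens are secreted proteins in which 3 chains wind into a helix, and each chain can enter that helix only where glycine returns at the first place of a repeating block of 3 amino acids. Fibrillar collagens form the cables of muscle connective tissue and are made mainly by fibroblasts and mesenchymal progenitors. Type IV collagen forms the sheet of the basement membrane around fibres and capillaries, collagen VI forms beaded filaments next to it and belongs to the niche of satellite cells, and FACIT collagens and multiplexins link fibrils or basement membranes to the surrounding matrix.

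The length of this repeat differs between the classes and can be read in the genes. In the longest coding sequence of each gene (GENCODE M21, GRCm38), glycine codons, which begin with GG, were followed at steps of 3 codons. The longest unbroken run was 216 to 344 blocks in the 11 fibrillar genes, 39 to 66 in the 6 type IV genes, 37 to 87 in collagen VI and 32 to 113 in the FACIT genes. Both multiplexins had a longest run of 30 blocks. Type IV genes broke their repeat into 22 to 27 runs of at least 5 blocks, Col15a1 into 11 and Col18a1 into 16, while Col1a1 and Col3a1 had 2 each. Exons follow the repeat as well: 21 of the 51 coding exons of Col1a1 and 24 of the 51 of Col3a1 were 54 bases long, against 2 of 52 in Col4a1 and 1 of 40 in Col15a1. The first pair of sequences below are 54-base exons of the fibrillar genes on which the comparison turns, coding exon 26 of Col1a1 (chr11:94944355-94944408, plus strand) and coding exon 26 of Col3a1 (chr1:45334761-45334814, plus strand). The next pair are 90 coding bases across the end of the longest run in Col6a2 (coding exons 17 to 19, chr10:76606196-76607121, minus strand) and Col4a1 (7 to 9, chr8:11244516-11245219, minus strand), introns left out. Capitals mark the glycine codons of the run, which fill the exon in the fibrillar genes and stop at an interruption in the others.
Col1a1: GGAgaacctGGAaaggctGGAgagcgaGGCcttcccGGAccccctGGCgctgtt
Col3a1: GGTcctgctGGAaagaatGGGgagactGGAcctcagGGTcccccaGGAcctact
Col6a2: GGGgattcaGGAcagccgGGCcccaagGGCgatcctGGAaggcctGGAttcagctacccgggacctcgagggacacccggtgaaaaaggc
Col4a1: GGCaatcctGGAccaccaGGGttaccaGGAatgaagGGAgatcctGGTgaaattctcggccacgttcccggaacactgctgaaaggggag

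**Figure D1:**
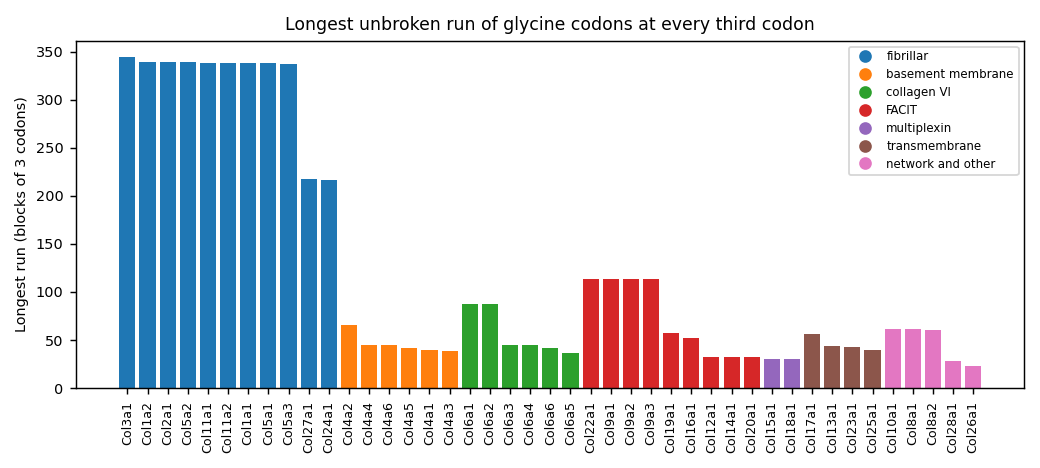
Longest unbroken run of glycine codons at steps of 3 codons (vertical axis, blocks of 3 codons) in the longest coding sequence of each of the 43 collagen genes, coloured by class. The fibrillar genes reach 216 to 344 blocks and the type IV genes 39 to 66.

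Across all 43 genes, collagen transcripts were higher in 2 of the 3 Pax7-CreERT libraries than in every control. The summed collagen CPM was 5252, 4335 and 2782 in the Pax7-CreERT libraries (replicates 1, 2 and 3, the order used throughout) and 2559, 2827 and 2843 in the controls, or 4123 ± 1249 against 2743 ± 159 (SD, n = 3 each). Replicate 3 of the Pax7-CreERT group lay inside the control range, so the groups overlapped. Pax7-CreERT replicates 1 and 2 were also the deepest libraries, and the part of depth in these values was not tested. In bulk RNA such as this, fewer cells of a type and less RNA per cell cannot be told apart. A gene was tested where 3 or more libraries reached 1 CPM. Of the 39 collagen genes tested, 34 had a log2 fold change (Pax7-CreERT minus control) above 0, where 68.0% of all 14763 genes tested did. Their median log2 fold change was 0.41, against 0.089 over all genes, and it was 0.64 without Pax7-CreERT replicate 3. With TMM scaling 33 of the 39 and 51.5% of all genes were above 0, and with quantile normalization 32 and 50.9%. Col2a1, Col6a4, Col9a1 and Col9a3 did not pass this filter, and 12 of the 39 that did averaged under 5 CPM.

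No collagen gene passed limma's test at an adjusted p under 0.05, and 0.00677% of all genes tested (1 gene) did. At an unadjusted p under 0.05 stood 16 of the 39, all higher with Cre, or 41.0%, where 4.58% of all genes tested were higher at that level. None was lower, where 0.942% of all genes were (either direction, 5.52%). These 16 were Col1a1, Col1a2, Col3a1, Col5a1, Col5a2, Col5a3 and Col27a1 among fibrillar genes, Col4a3 and Col4a4, Col6a2, Col6a3 and Col6a6, the FACIT gene Col12a1, both multiplexins and Col8a1. The values of the 2 groups did not overlap, with Cre higher, in 10 of the 39, where 8.69% of all genes showed this, and with Cre lower in none, against 2.28%. The adjusted p of Col15a1 was 0.308 and those of the other 15 lay between 0.891 and 0.896, with the remaining 23 at 0.896 to 0.987 (limma, Benjamini-Hochberg). The genes vary together across the same 6 libraries, so 16 is not a number of separate observations. With 3 libraries against 3, an exact 2-sided permutation test cannot give a p below 0.1. The labels do not say whether each library came from a separate mouse, and p-values measure only the spread between these libraries.

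The differences were carried unevenly by the libraries. Pax7-CreERT replicate 1 was the highest of the 6 libraries for 22 of the 39 genes, against 20.4% of all genes tested. It was the highest for 13 of the 16, but these were all higher with Cre, so that share is no background for them. Replicate 3 was the lowest Pax7-CreERT library for 13 of the 16. In 7 of the 16 it lay below the highest control. Without Pax7-CreERT replicate 1 the count at an unadjusted p under 0.05 was 6 (background 2.21%), without replicate 2 it was 9 (2.86%), and without replicate 3 it was 20 (4.67%). It was 10 without control replicate 1 (5.64%), 11 with TMM factors (2.61%) and 10 with quantile normalization (2.48%). With haemoglobin genes removed it was 11 (3.59%), with array weights 19 (6.01%) and with no mean-variance trend 11 (4.73%). Leaving out control replicate 2 gave 11 (4.67%), control replicate 3 gave 15 (4.94%), and Pax7-CreERT replicate 1 with control replicate 3 gave 10 (3.29%). Col1a1, Col6a2, Col6a6 and Col15a1 kept an unadjusted p under 0.05 whichever library was left out. The share of all genes that did so was not computed, and these fits reuse the same libraries.

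**Figure D2:**
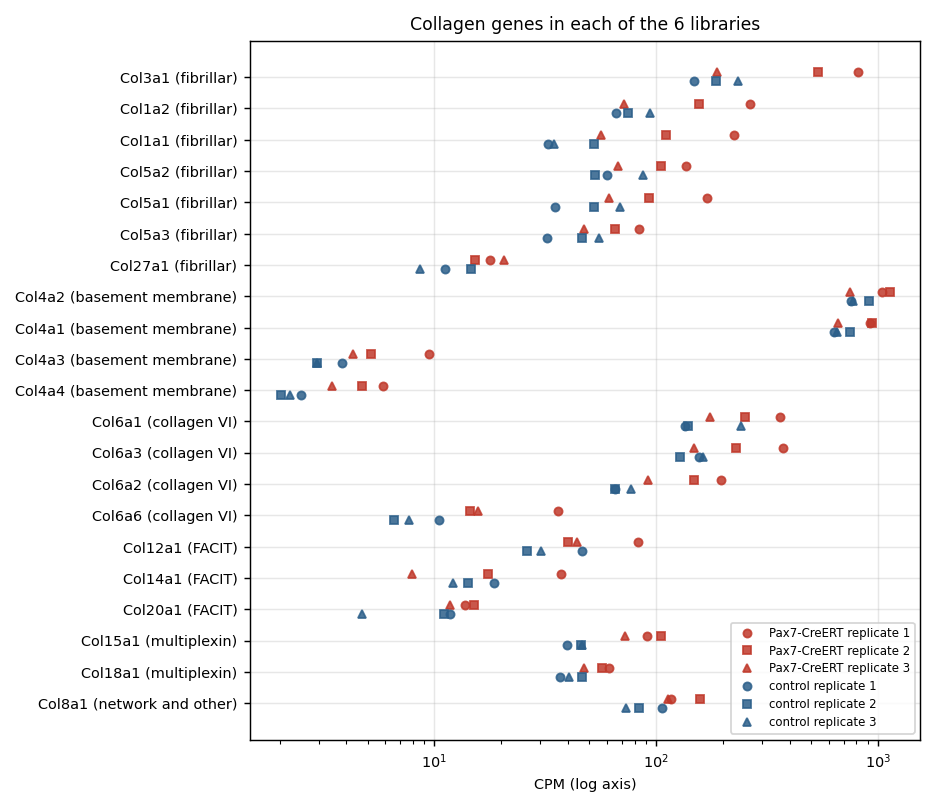
CPM (horizontal log axis) of 21 collagen genes in each of the 6 libraries, Pax7-CreERT in red and control in blue, with the replicate given by the symbol. Replicate 1 of the Pax7-CreERT group (red circle) is the highest library in most rows, while for Col15a1 all 3 red symbols lie at 72.1 to 105 CPM and all 3 blue ones at 39.8 to 46.4.

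Fibrillar collagens held the largest log2 fold change of the 39, that of Col1a1. All 10 tested members had higher means with Cre (median log2 fold change 0.60, or 0.40 without Pax7-CreERT replicate 1), 7 had an unadjusted p under 0.05, and 2, Col1a1 and Col27a1, had groups that did not overlap. Counts in this and the later classes are to be read beside the shares of all genes. Of all genes 68.0% were above 0, 4.58% were higher at an unadjusted p under 0.05 and 8.69% were higher without overlap. The class sum was 1743, 1108 and 539 CPM with Cre and 418, 502 and 606 CPM in the controls, so that replicate 3 was close to the controls. Col1a1, which encodes the alpha 1 chain of type I collagen (chr11:94936224-94953042, plus strand), measured 224, 111 and 56.6 CPM with Cre and 32.6, 52.5 and 34.8 CPM in the controls. Every Pax7-CreERT value lay above every control, but replicate 3 exceeded control replicate 2 only narrowly. The means were 130.5 ± 85.6 against 40.0 ± 10.9 CPM (SD, n = 3 each), 3.26-fold apart, with a log2 fold change of 1.5 (SE 0.40, limma adjusted p = 0.891). Without Pax7-CreERT replicate 1 the log2 fold change was 1.0. Col1a2, whose alpha 2 chain joins Col1a1's in type I collagen (chr6:4505618-4541543, plus strand), measured 265, 155 and 71.6 CPM with Cre and 66.2, 74.5 and 94.2 CPM in the controls, with a log2 fold change of 0.88 (SE 0.38) that became 0.44 without replicate 1. Here replicate 3 lay below control replicates 2 and 3. Col3a1, the single chain of type III collagen of distensible tissue and fresh scars (chr1:45311538-45349706, plus strand), measured 815, 535 and 189 CPM with Cre and 149, 187 and 234 CPM in the controls. Replicates 1 and 2 were more than any control and replicate 3 lay among the controls. The log2 fold change of Col3a1 was 1.22 (SE 0.43), and 0.77 without replicate 1.

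The chains of type V collagen, which starts and limits the thickness of type I fibrils, followed the same order of libraries. Col5a1 (chr2:27886425-28039510, plus strand) measured 169, 92.5 and 61.5 CPM with Cre and 34.9, 52.4 and 68.3 CPM in the controls, with a log2 fold change of 0.97 (SE 0.34). Col5a2 (chr1:45374331-45503282, minus strand), which lies next to Col3a1 on chromosome 1, measured 137, 105 and 67.0 CPM with Cre and 59.8, 53.2 and 87.3 CPM in the controls (0.59). Col5a3 (chr9:20770057-20815067, minus strand) measured 83.5, 65.2 and 47.4 CPM with Cre and 32.3, 46.3 and 55.5 CPM in the controls (0.54). In all 3 genes replicate 3 lay inside the control range, and control replicate 3 was the highest control. Without Pax7-CreERT replicate 1 the log2 fold changes were 0.58, 0.35 and 0.34. Col27a1, a fibrillar collagen best known from cartilage (chr4:63215412-63334990, plus strand), behaved differently, at 17.8, 15.2 and 20.6 CPM with Cre and 11.2, 14.5 and 8.63 CPM in the controls. Its groups did not overlap, replicate 3 was its highest library, and its log2 fold change of 0.61 (SE 0.21) was 0.61 without replicate 1. The cartilage-type genes Col11a1 and Col11a2 averaged under 5 CPM and had log2 fold changes of 0.41 and 0.22, with intervals from -0.53 to 1.34 and -0.51 to 0.96 (95%). Col24a1 measured 19.1 ± 1.96 against 17.8 ± 4.75 CPM (0.12, interval -0.34 to 0.58).

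**Figure D3:**
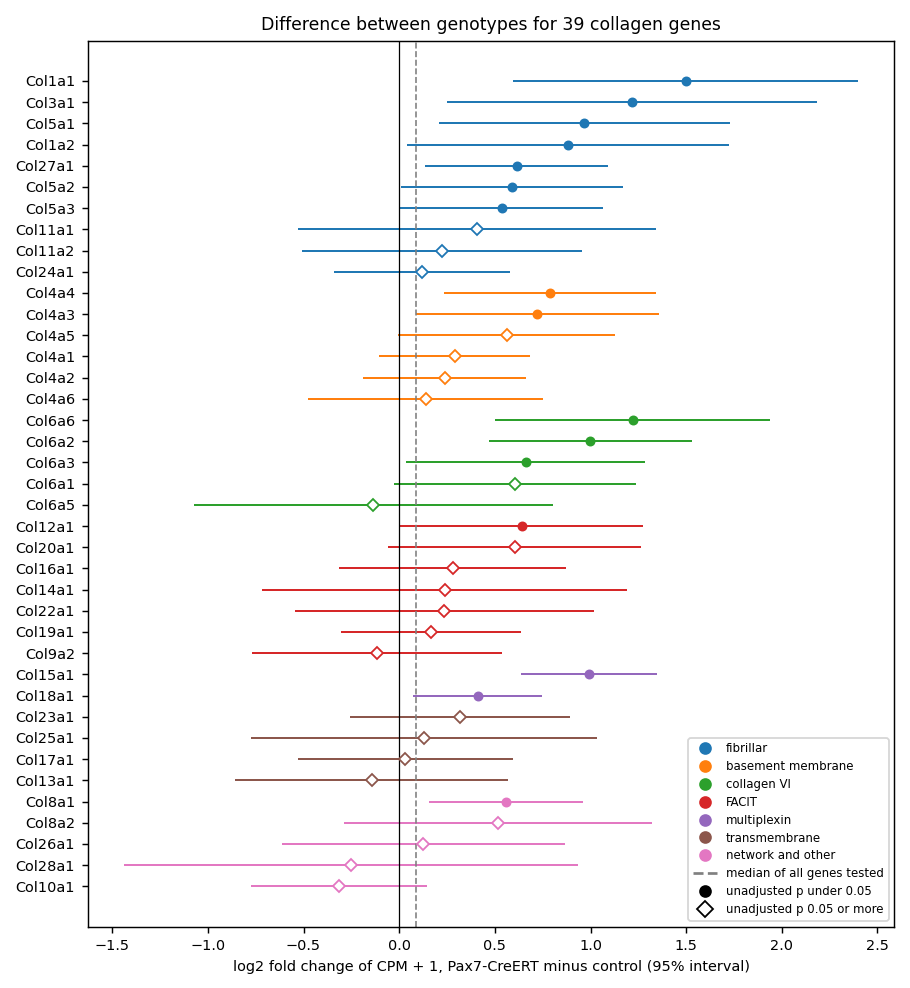
Log2 fold change of CPM + 1 (Pax7-CreERT minus control, horizontal axis) with its 95% interval from limma for the 39 collagen genes tested, ordered within class and coloured by class. The filled circles are the 16 genes with an unadjusted p under 0.05, all to the right of 0, and the dashed line is the median of all genes tested (0.089).

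Type IV collagen was the most abundant class by summed CPM, and its main pair of chains differed little between the groups. Per kilobase of exon, Col4a2 (126 ± 13.2 CPM per kb, mean ± SD of the 3 controls) and Col4a1 (103 ± 9.30) stood above every other collagen, ahead of Col6a1 (42.0 ± 14.9), Col3a1 (34.1 ± 7.68), Col8a1 (17.2 ± 3.37) and Col1a2 (14.6 ± 2.69). Col4a1 and Col4a2 encode the chains of the common network around capillaries and fibres. Col4a1 (chr8:11198423-11312826, minus strand) measured 925, 937 and 663 CPM with Cre and 637, 752 and 657 CPM in the controls, and Col4a2 (chr8:11312805-11449287, plus strand) 1040.1, 1134 and 745 CPM with Cre and 759, 913 and 773 CPM in the controls. Replicates 1 and 2 were higher than every control in both genes, whereas replicate 3 was inside the control range for Col4a1 and below all controls for Col4a2. The log2 fold changes were 0.29 (SE 0.18) and 0.24 (SE 0.19), with 95% intervals of -0.11 to 0.69 and -0.19 to 0.66. Without Pax7-CreERT replicate 3 they were 0.45 and 0.42, and that of Col4a2 was 0.12 without replicate 2. The minor chains Col4a3 and Col4a4, known from kidney and lung basement membranes, were far scarcer but had groups that did not overlap. Col4a3 (chr1:82586921-82722059, plus strand) measured 9.46, 5.17 and 4.27 CPM with Cre and 3.84, 2.96 and 2.96 CPM in the controls, and Col4a4 (chr1:82450723-82586849, minus strand) 5.89, 4.72 and 3.46 CPM with Cre and 2.51, 2.02 and 2.22 CPM in the controls. Their log2 fold changes were 0.72 (SE 0.28) and 0.79 (SE 0.25), on as few as 12 and 9 estimated reads in a library, and that of Col4a3 was 0.43 without replicate 1. Col4a5 was at 12.9 ± 4.56 against 8.05 ± 0.738 CPM (0.56) and Col4a6 at 3.69 ± 1.46 against 3.17 ± 0.602 CPM (0.14), with overlapping groups. All 6 members had higher means (median 0.43, with 0.27 without Pax7-CreERT replicate 1 and 0.64 without replicate 3). The class sum was 2003, 2097 and 1427 CPM with Cre and 1415, 1680.4 and 1447 CPM in the controls.

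The type IV genes lie in head-to-head pairs. In the deposited coordinates (mm10) Col4a1 and Col4a2 begin on opposite strands of chromosome 8 with 22 shared bases, Col4a4 and Col4a3 begin 71 bases apart on chromosome 1, and Col4a6 and Col4a5 begin 1342 bases apart on the X chromosome. The CPM ratio of Col4a2 to Col4a1 ran from 1.12 to 1.21 over the 6 libraries. The ratios of the scarcer pairs ran wider, from 1.1 to 1.61 for Col4a3 to Col4a4 and from 2.30 to 4.32 for Col4a5 to Col4a6, with Col4a4 and Col4a6 under 5 CPM on average. The shared start region is shown as the RefSeq promoter window of Col4a2 (GRCm38.p6, chr8:11312555-11312854, plus strand), from 250 bases before to 50 bases after the start. Capitals mark matches to CCAAT and GGGCGG on either strand.
Col4a2: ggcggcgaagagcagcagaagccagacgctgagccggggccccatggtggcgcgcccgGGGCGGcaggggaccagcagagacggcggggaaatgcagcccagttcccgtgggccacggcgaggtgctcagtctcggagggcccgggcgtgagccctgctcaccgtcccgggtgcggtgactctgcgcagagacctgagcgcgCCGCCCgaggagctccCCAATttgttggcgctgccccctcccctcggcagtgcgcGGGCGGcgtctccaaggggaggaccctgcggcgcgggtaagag
The GGGCGG match after the Col4a2 start, at 11312812 to 11312817, lies in the window of both genes. Of the 43 collagen genes 34 had a window in the table, 37 windows in all. GGGCGG occurred in 59.5% of the 37 and 35.7% of all 32851 windows of that length, CCAAT in 32.4% and 37.4%, and TATAAA in 13.5% and 13.6%. The kappa B consensus, the motif that NF-kB dimers bind, matched in 4 of the 37 windows (10.8%, against 4.51% of all), those of Col6a4, Col9a1, Col9a2 and Col27a1. A match is a description of the letters and not evidence of binding.

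Collagen VI is assembled from an alpha 1, an alpha 2 and a longer chain, alpha 3 in most tissues, and loss of any of these causes muscle disease. The class sum was 974, 646 and 433 CPM with Cre and 370.3, 338 and 495 CPM without, and 4 of 5 tested members had higher means (median log2 fold change 0.66, or 0.34 without Pax7-CreERT replicate 1). Col6a2 (chr10:76595756-76623630, minus strand) measured 196, 148 and 91.8 CPM with Cre and 65.2, 64.9 and 77.2 CPM in the controls. The groups did not overlap, and the log2 fold change of 1.0 (SE 0.24) was 0.75 without replicate 1. Its neighbour Col6a1 (chr10:76708792-76726044, minus strand) measured 363, 252 and 175 CPM with Cre and 135, 139 and 243 CPM in the controls. Control replicate 3 exceeded replicate 3 of the Pax7-CreERT group, and the log2 fold change was 0.60 (SE 0.28), or 0.34 without Pax7-CreERT replicate 1. Col6a3 (chr1:90766860-90843971, minus strand) measured 375, 229.9 and 148 CPM with Cre and 156, 127 and 162 CPM in the controls, with replicate 3 inside the control range and a log2 fold change of 0.66 (SE 0.28) that was 0.32 without replicate 1. Col6a6, an alternative to alpha 3 (chr9:105689417-105828085, minus strand), measured 36.2, 14.5 and 15.7 CPM with Cre and 10.5, 6.60 and 7.65 CPM in the controls. Its groups did not overlap and its log2 fold change was 1.22 (SE 0.32), or 0.82 without replicate 1. Its neighbour Col6a5 averaged 1.87 ± 1.33 against 2.17 ± 1.45 CPM (-0.13), and the related Col6a4 was under the filter at 0.416 ± 0.105 against 1.16 ± 1.03 CPM. How reads shared by these similar genes were counted is not given in the sources used here.

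Multiplexins were the class in which all 3 Pax7-CreERT libraries stood apart from the controls in both genes. Their class sum was 152, 162 and 119 CPM with Cre and 76.6, 92.1 and 86.8 CPM without. Col15a1, which encodes collagen XV of the outer basement membrane zone of capillaries and muscle fibres (chr4:47208012-47313165, plus strand), measured 90.8, 105 and 72.1 CPM with Cre and 39.8, 45.8 and 46.4 CPM in the controls. The lowest Pax7-CreERT value was well above the highest control, and replicate 2, not replicate 1, was the highest. Its log2 fold change was 0.99 (SE 0.16, limma adjusted p = 0.308), with a 95% interval of 0.64 to 1.35, and it stayed between 0.87 and 1.14 when any 1 library was left out. It had the smallest p of the 39 genes and did not pass over all genes. Col18a1, the source of the fragment endostatin (chr10:77052179-77166530, minus strand), measured 61.5, 56.8 and 47.2 CPM with Cre and 36.8, 46.3 and 40.5 CPM in the controls. Its groups were separated by less than 1 CPM, between replicate 3 and control replicate 2, and its log2 fold change was 0.41 (SE 0.15). The unadjusted p of Col18a1 rose above 0.05 when Pax7-CreERT replicate 1, Pax7-CreERT replicate 2 or control replicate 1 was left out, with log2 fold changes of 0.33, 0.39 and 0.33.

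FACIT collagens differed little as a class. Of 7 tested members 6 had higher means, and the median was 0.24, with 0.37 without Pax7-CreERT replicate 3 and 0.39 without control replicate 1. In this class 1 gene had an unadjusted p under 0.05. Col12a1, a collagen of tendon and fascia that coats type I fibrils (chr9:79598987-79718722, minus strand), measured 82.6, 40.0 and 43.8 CPM with Cre and 46.5, 26.3 and 30.3 CPM in the controls. Replicate 1 alone exceeded every control, and the log2 fold change of 0.64 (SE 0.28) was 0.32 without it. Col14a1, a related fibril-associated collagen (chr15:55307751-55520803, plus strand), measured 37.3, 17.5 and 7.94 CPM with Cre and 18.6, 14.1 and 12.1 CPM in the controls. Its highest and lowest libraries were both Pax7-CreERT, and its log2 fold change of 0.24 (SE 0.43) was -0.29 without replicate 1. Col20a1 (chr2:180986535-181017540, plus strand) measured 13.8, 15.1 and 11.8 CPM with Cre and 11.7, 11.05 and 4.69 CPM in the controls, without overlap but with the gap under 1 CPM, and had a log2 fold change of 0.60 (SE 0.30), or 0.23 without control replicate 3. Col16a1 and Col19a1 were at 15.3 ± 6.12 against 12.0 ± 2.47 CPM and 9.93 ± 1.83 against 8.72 ± 1.59 CPM. Among the network-forming collagens, Col8a1, a short-chain collagen of vessel walls (chr16:57624256-57754737, minus strand), measured 117, 158 and 113 CPM with Cre and 106, 83.7 and 72.8 CPM in the controls. Its groups did not overlap, its highest library was replicate 2, and its log2 fold change was 0.56 (SE 0.18), with 0.62 without replicate 1. The related Col8a2 was at 14.4 ± 7.03 against 9.70 ± 4.10 CPM (0.52). Col10a1, the short-chain collagen of growth plates, was at 8.33 ± 1.25 against 10.6 ± 2.04 CPM, with the lowest log2 fold change of the 39 (-0.31, limma adjusted p = 0.896). The scarce genes Col9a2, Col22a1, Col26a1 and Col28a1 averaged under 5 CPM, with log2 fold changes of -0.11, 0.24, 0.13 and -0.25 and 95% intervals that all included 0. The untested Col2a1, Col9a1 and Col9a3 had control means of 1.04, 0.294 and 0.854 CPM and means of 0.240, 0.493 and 1.19 CPM with Cre. None of the 4 transmembrane genes (Col13a1, Col17a1, Col23a1 and Col25a1) had an unadjusted p under 0.05, and their log2 fold changes ran from -0.14 to 0.32.

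The mix of collagens was read from shares and ratios, which do not depend on how libraries are scaled. Fibrillar genes took 33.2, 25.6 and 19.4% of the collagen CPM with Cre and 16.3, 17.8 and 21.3% in the controls, and type IV genes 38.1, 48.4 and 51.3% against 55.3, 59.4 and 50.9%, with overlapping groups in both. Of 6 ratios between chains, 3 did not overlap between the groups. Col1a2 to Col1a1 was 1.18, 1.41 and 1.27 with Cre and 2.03, 1.42 and 2.71 in the controls, lower with Cre, though replicate 2 and control replicate 2 differed by little. Per kilobase of exon Col1a2 was above Col1a1 in every library, by 1.31 to 3.004 times. Col6a2 to Col6a1 was 0.541, 0.588 and 0.523 against 0.482, 0.468 and 0.318, higher with Cre. Col18a1 to Col15a1 was 0.677, 0.540 and 0.655 against 0.924, 1.01 and 0.872, lower with Cre. Each of these gave an exact 2-sided permutation p of 0.1, the smallest that 3 against 3 allows, or 0.2 adjusted over the 6 ratios (Benjamini-Hochberg), so the design could not take them past 0.05. The exact permutation p of Col3a1 to Col1a1 was 0.5, that of Col4a2 to Col4a1 0.3 and that of Col6a3 to Col6a1 0.9. Control replicate 3 was the control farthest from the Pax7-CreERT values in the Col1a2 and Col6a2 ratios. Without it the log2 differences were -0.41 in place of -0.63 and 0.21 in place of 0.40.

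**Figure D4:**
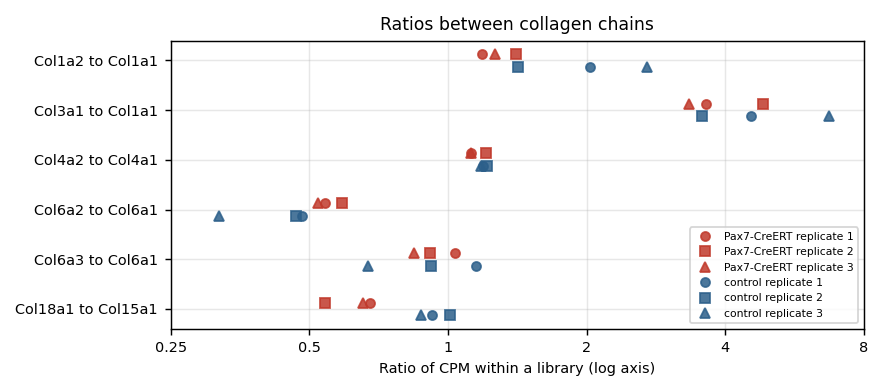
Ratio of the CPM of 2 collagen genes within each library (horizontal log axis), Pax7-CreERT in red and control in blue. Col4a2 to Col4a1 stays within 1.12 to 1.21, and Col18a1 to Col15a1 is 0.540 to 0.677 with Cre and 0.872 to 1.01 in the controls.

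Markers of the cells that make or surround collagen were read beside these values. Each list was given a position per library: log2(CPM + 1) was centred on the gene's mean over the 6 libraries, and the median over the list was taken. Fibrillar collagens lay at 0.85, 0.38 and -0.24 with Cre and at -0.54, -0.46 and -0.20 in the controls. Fibro-adipogenic progenitors are mesenchymal cells that produce much of the matrix of muscle, and their 15 markers lay at 0.75, -0.096 and -0.25 and at -0.26, -0.37 and 0.31. Both lists were highest in replicate 1, but in replicate 2 and in control replicate 3 they moved apart, since replicate 2 had high fibrillar collagens with progenitor markers below their mean and control replicate 3 had the reverse. The progenitor markers summed to 4029.7 to 7359 CPM with Cre and 4105 to 6301 CPM in the controls, and none was at 0 in any library. Of these markers 11 of 15 were higher, close to the 68.0% of all genes, and 3 were higher at an unadjusted p under 0.05, where 4.58% of all genes were. The 3 were Fbn1, the microfibril protein fibrillin (280.3 ± 138 against 132 ± 17.1 CPM), Lum (75.4 ± 36.9 against 41.1 ± 7.01 CPM) and Smoc2 (112 ± 38.8 against 76.6 ± 7.68 CPM). Per CPM of the progenitor marker Pdgfra, a ratio chosen after the values were seen, Col1a1 stood at 0.696, 0.669 and 0.361 with Cre and 0.221, 0.419 and 0.176 in the controls, and Col15a1 at 0.282, 0.636 and 0.460 and 0.270, 0.366 and 0.235, both with overlapping groups. Col6a2 per Pdgfra was 0.609, 0.896 and 0.586 against 0.442, 0.518 and 0.391, without overlap. The part of cell composition in the collagen values was not tested.

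Pericyte and smooth muscle markers, whose cells lay down vessel basement membrane, lay at 0.046, 0.34 and 0.077 with Cre and -0.085, -0.057 and -0.33 in the controls, and summed to 9956 to 12522 CPM with Cre and 7810.2 to 9916 CPM in the controls. They were highest in replicate 2, as were endothelial (0.18) and Schwann cell markers (0.25). Of the 39 collagen genes 9 were highest there, Col15a1 and Col8a1 among them, but the share of all genes highest in replicate 2 was not computed. Control replicate 3 was the lowest library for the pericyte list and for Col8a1, but the highest control for Col15a1. In the pericyte list 12 of 12 log2 fold changes were above 0, where 68.0% of all genes were. The groups did not overlap, with Cre higher, for 5 of the 12, where 8.69% of all genes showed this. An unadjusted p under 0.05 was reached by 4, each higher with Cre, where 4.58% of all genes were higher at that level. Among these 4 were the contractile genes Cnn1 (20.2 ± 3.58 against 11.2 ± 0.340 CPM) and Myl9 (407 ± 65.6 against 304 ± 17.7 CPM). Endothelial markers had 8 of 12 higher, near the 68.0% of all genes, and none with an unadjusted p under 0.05 (median log2 fold change 0.059), and summed to 8262 to 9210.3 CPM with Cre and 7123 to 10229 CPM in the controls. Against the same 68.0%, tenocyte markers had 9 of 10 higher (median 0.21), Schwann cell markers 10 of 10 (0.17), while satellite cell markers, with 8 of 12 (0.033), and macrophage markers, with 8 of 12 (0.022), were near that share. Of these only Hey1, a Notch target of satellite cells and endothelium, had an unadjusted p under 0.05, being lower with Cre (114 ± 17.3 against 148 ± 7.53 CPM). Myofibre genes, from cells that are not mononuclear, lay at 1.03, 0.18 and 0.055 with Cre and -0.36, -0.019 and -0.86 in the controls. Of these 14 of 14 were higher and 12 had an unadjusted p under 0.05, against the same 4.58%. Replicate 1 was the highest library for all 14 (20.4% of all genes), and 9 were higher without overlap (8.69%). A high Pax7-CreERT replicate 1 was thus not particular to the collagens. The order of the other libraries differed: control replicate 3 was the lowest library for myofibre genes (-0.86) and the highest control for fibrillar collagens (-0.20). Erythroid genes lay at -0.58, -1.11 and 0.088 and 0.20, -0.55 and 1.91, with all 9 lower. None of the members of these marker lists passed over all genes.

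**Figure D5:**
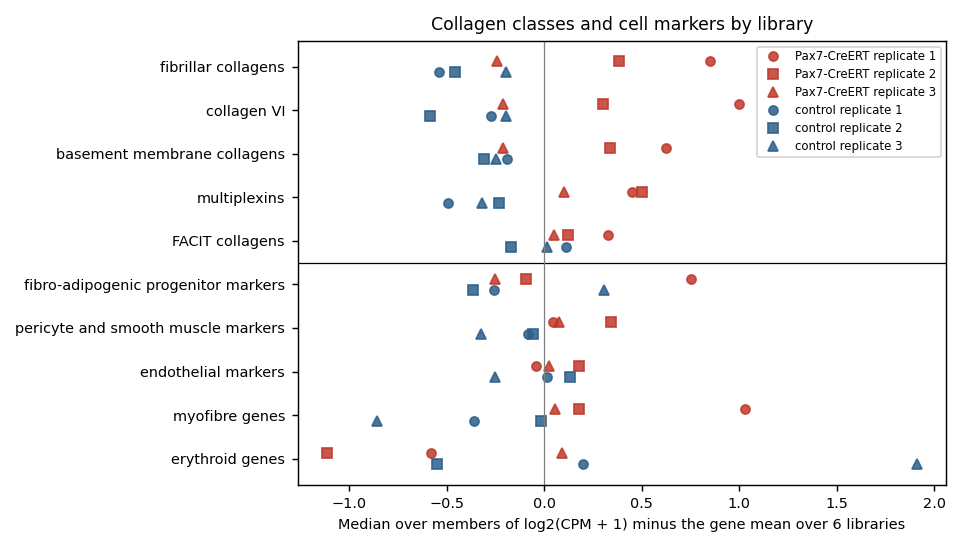
Position of 5 collagen classes (above the line) and 5 marker lists (below it) in each library, as the median over members of log2(CPM + 1) minus the gene's mean over 6 libraries. Replicate 1 of the Pax7-CreERT group is at 0.85 for fibrillar collagens and 0.75 for progenitor markers, while replicate 2 is at 0.38 and -0.10.

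The genes that fold, trim, bind and sense collagen were read as 4 further lists, and none of their members passed over all genes. Their counts are to be read beside the 68.0% of all genes above 0 and the 4.58% higher at an unadjusted p under 0.05. The enzymes and chaperones that modify and export collagen chains were nearly level: 18 of 24 were higher, with a median log2 fold change of 0.10 and 0 at an unadjusted p under 0.05. Their smallest p belonged to Plod1, a lysyl hydroxylase, at 71.3 ± 2.17 against 84.5 ± 5.32 CPM (log2 fold change -0.24, limma adjusted p = 0.896), lower with Cre and without overlap. In all, 3 of the 24 were lower with Cre without overlap, where 2.28% of all genes were. Only 1 was higher without overlap, where 8.69% of all genes were. The genes that process procollagen outside the cell and crosslink it had 13 of 16 higher (median 0.27) and 3 at an unadjusted p under 0.05. Pcolce, the enhancer of procollagen C-proteinase, measured 45.1 ± 11.7 against 26.6 ± 0.786 CPM (log2 fold change 0.71, limma adjusted p = 0.891). Adamts3, a procollagen N-proteinase, measured 4.19 ± 1.22 against 2.21 ± 0.482 CPM, and Pxdn, the peroxidase that crosslinks type IV collagen, 212 ± 59.0 against 142 ± 28.9 CPM. The groups did not overlap for Pcolce and Adamts3. Of the matrix proteins that bind collagen, 20 of 24 were higher (median 0.21). Pax7-CreERT replicate 1 was the highest library for 21 of these 24, and the list lay at 0.61, -0.066 and -0.25 with Cre and -0.051, -0.33 and 0.10 in the controls. At an unadjusted p under 0.05 were Postn (periostin, 34.5 ± 8.24 against 21.0 ± 4.23 CPM), Fn1 (fibronectin, 98.1 ± 46.0 against 54.5 ± 10.1 CPM) and Lum (lumican, given above). Replicate 1 was also the highest for 10 of the 16 processing and crosslinking genes. Collagen receptors had 11 of 14 higher (median 0.23), with Cspg4, a proteoglycan that binds collagen VI (173 ± 25.9 against 123 ± 21.2 CPM), and Antxr2, which takes up collagen VI (87.4 ± 25.4 against 59.7 ± 10.1 CPM), at that level. Lair1, an inhibitory collagen receptor of leukocytes, measured 7.10 ± 2.15 against 10.3 ± 3.02 CPM. Of the members named here, Cspg4 also stands in the pericyte list and Lum in the progenitor list. The list of matrix proteins that bind collagen shares further members with the progenitor and tenocyte lists, so these lists are not independent.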

How the data were processed

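The deposited values are CPM with 0.0001 added by the authors, which was read from the values: each library sums to 1000000 plus that constant for every gene. The constant was subtracted. The submitters' processing notes name Partek, DESeq2 and mm10 without their roles, and the aligner, counting rule and annotation are not given in the sources used here. The libraries were made with a strand-specific kit, per the labels' protocols. The end of each gene in the table was moved by 1 base to the 1-based form. The CPM of 1 read, taken from the smallest steps between low values, gave 4054000 to 13355000 assigned reads per library, or a counting SD of 8.65% to 15.7% at 10 CPM. Of values up to 20 reads, 92.9% to 93.9% were whole within 0.05 read, short of the 95% required, so no count test was run.

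Groups were compared with limma 3.58.1 (R 4.3.3) on log2(CPM + 1) with a mean-variance trend, over the 14763 genes that reached 1 CPM in 3 or more libraries, with Benjamini-Hochberg adjustment over all of them. Adding 1 understates the fold changes of low genes. The fit was tested on simulated data. Class and list values are counts and medians with no test. Values in every library were given for collagen genes with an unadjusted p under 0.05, for those whose groups did not overlap and for 14 chosen by name (Col1a1, Col1a2, Col3a1, Col5a1, Col5a2, Col4a1, Col4a2, Col6a1, Col6a2, Col6a3, Col12a1, Col14a1, Col15a1 and Col18a1), and up to 4 members with the smallest p were named from each of the 13 other lists. The members and lists were chosen with earlier results of these data known. Exon lengths are unions of the exons of protein-coding transcripts in GENCODE M21 (basic set). Replicates were numbered in accession order, so equal numbers do not pair libraries. The alternatives were other added constants, filters, scalings and weights, and leaving out libraries.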

Additional observations from a re-analysis of the deposited data

How the results depend on the processing

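No paired analysis was possible because the labels give no replicate numbers that the groups share. Under the 16 alternatives, 0 collagen genes were called at an adjusted p under 0.05 in any, and the median log2 fold change of the collagen genes stayed between 0.29 and 0.64. The lowest adjusted p of a collagen gene was 0.0758, with limma's array weights. The direction was the same in every alternative that included the gene for 25 of the 39 genes, and for all 16 genes with an unadjusted p under 0.05. Those 16 were picked by p from the same libraries, so their steady direction is no separate support. The share of all genes that kept their direction was not computed. The filter of at least 5 CPM in 3 libraries kept 28 of the 39 and left out Col4a3 and Col4a4. A further alternative among them, a fit without the mean-variance trend, was chosen after seeing the data, and left 11 of these 16. The number of collagen genes at an unadjusted p under 0.05 was 10 with quantile normalization and 10 without both Pax7-CreERT replicate 1 and control replicate 3, and ran from 6 to 20 when 1 library at a time was left out. Over all genes, 2 were called with no filter on low values and 2 without both of those libraries, and 0 to 1 when 1 library was left out. The causes of these shifts were not tested. With 1 library left out, log2 fold changes that changed sign ran -0.10 to 0.30 for Col4a6, -0.49 to 0.20 for Col6a5, -0.29 to 0.014 for Col9a2, -0.11 to 0.46 for Col11a2, -0.36 to 0.13 for Col13a1, -0.29 to 0.76 for Col14a1, -0.0089 to 0.49 for Col16a1, -0.19 to 0.27 for Col17a1, -0.11 to 0.52 for Col22a1, -0.072 to 0.30 for Col24a1, -0.088 to 0.55 for Col25a1, -0.024 to 0.37 for Col26a1, -0.70 to 0.49 for Col28a1, and the log2 difference of the Col6a3 to Col6a1 ratio ran -0.15 to 0.24. Col23a1 stayed above 0 there, at 0.051 to 0.50. Without both libraries those of Col4a6, Col14a1, Col23a1 and Col25a1 were -0.14, -0.42, -0.16 and -0.27. Col17a1 was at -0.048 with TMM factors, -0.016 with haemoglobin genes removed and -0.070 with quantile normalization, which put Col26a1 at -0.033, and array weights put Col6a5 at 0.18. Depth limits the 12 tested genes that averaged under 5 CPM, whose log2 fold changes ran from -0.25 to 0.79.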
